A study of Drosophila melanogaster with 16 samples.

Results

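Purified cells of Drosophila embryos that overexpressed gcm were compared with whole embryos of the same kind, to describe which transcripts the purified preparation holds more or less of. The comparison used the arrays titled sorted scagcm 1, 2 and 4 and the arrays titled whole scagcm 1 to 4, which is 7 distinct arrays of 15 in the series (8 of 16 as deposited), and all 13966 probe sets that are not Affymetrix controls. Sorted scagcm 2 and 3 held the same value in all 14010 probe sets and were counted as 1 array, called sorted gcm 2 below. Members were chosen by array title and probe set type, not by any measured value.

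All embryos were at stage 11. The 4 groups were sorted gcm cells (3 distinct arrays), whole gcm embryos (4), sorted control cells (4) and whole control embryos (4, of which 3 entered the fit). In sorted groups, neuroectodermal cells marked by mCD8-GFP, which joins a green fluorescent protein to a surface protein, were dissociated and pulled out with magnetic beads that bind mCD8. Controls were wild type for gcm and carried the same marker. The labels do not expand "sca", name the driver of gcm or mCD8-GFP, or say that replicates came from separate collections, so p-values reflect spread between arrays that may be technical. Sorted cells went through dissociation and bead binding and the labels mention no such step for whole embryos, so purification and handling cannot be told apart in this design. In bulk samples, fewer cells of a type and less RNA per cell cannot be told apart either.

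The gene gcm encodes a transcription factor that turns neural precursors of the fly embryo into glia, and repo, a homeobox gene switched on by it, marks nearly all lateral glia. At stage 11 the neuroectoderm gives off neuroblasts, selected by proneural genes and by Notch signalling through the E(spl) complex, while whole embryos also hold mesoderm, gut, epidermis, trachea, blood cells, germ cells and leftover maternal transcripts. A purified neuroectodermal sample is thus usually read by markers of neural lineages against markers of these other tissues.

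Levels are log2 of the quantile-normalised intensity plus 16, changes are sorted gcm minus whole gcm on that scale, and a probe set was called at an adjusted p under 0.05 in limma. A level under 5 means an intensity under 16 and is taken as near background, where the size of a change depends on the added 16. The 3 sorted gcm arrays correlated with each other at 0.943 to 0.969 over probe sets and the 4 whole gcm arrays at 0.964 to 0.978, against 0.692 to 0.805 between the groups. The trimmed mean intensity was 98.5 ± 13.7 in sorted gcm arrays and 119.7 ± 6.19 in whole gcm arrays (SD, n = 3 and 4, exact permutation p = 0.0286, the smallest that 35 splits allow). For actin, the log2 ratio of the 3' to the 5' probe set, a measure of how complete the labelled RNA is, was 1.92 ± 0.27 in sorted gcm arrays and 0.863 ± 0.308 in whole gcm arrays (exact permutation p = 0.0286), and that for eIF-4a was 0.983 ± 0.077 and 1.09 ± 0.15 (exact permutation p = 0.400). The array labelled whole control 3 correlated at 0.913 to 0.936 with sorted gcm arrays and at 0.666 to 0.728 with whole gcm arrays, and was left out of the fit. It is in neither group compared here.

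The overexpressed gene and its glial target were both higher in purified cells, in gcm embryos and also in controls. The level of gcm was 13.15, 13.04 and 13.10 in sorted gcm 1, 2 and 4, against 11.25, 10.65, 10.65 and 10.53 in whole gcm 1 to 4. All 3 sorted arrays stood above all 4 whole arrays, and whole gcm 1 was the highest of the whole arrays. The change was 2.33 (SE 0.22, adjusted p = 3.37e-07), or 5.01-fold, on arrays whose highest level was 13.42, so the gcm probe set lay near the top of the scale. The level of repo was 10.93, 10.71 and 11.32 in the sorted gcm arrays, against 8.36, 8.04, 8.39 and 7.71 in the whole gcm arrays, a 7.24-fold rise (change 2.86, SE 0.23, adjusted p = 4.78e-08). The related gene gcm2 rose by 1.17 (SE 0.21, adjusted p = 1.92e-04), with 6.60 to 6.98 in sorted gcm cells and 5.14 to 5.91 in whole gcm embryos. In controls gcm was at 11.29 to 12.12 on sorted arrays and at 8.10 to 8.69 on the whole arrays of the fit. Every sorted control array thus read above every whole gcm array for gcm. The control change of repo was 2.30, and its difference between gcm and control of 0.55 (SE 0.32, adjusted p = 0.591) was not called. That of gcm2 was 0.82 in control.

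**Figure D1:**
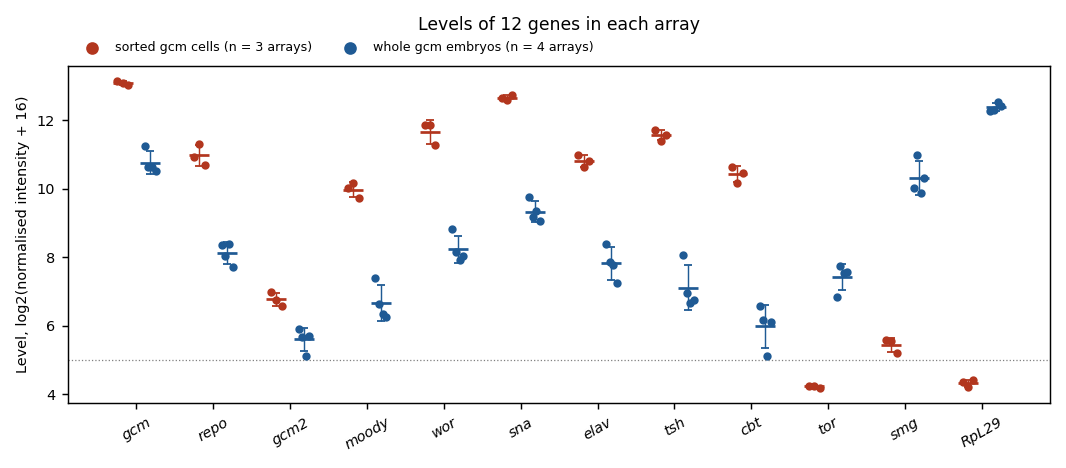
Levels of 12 genes, as log2 of normalised intensity plus 16, on the 3 sorted gcm arrays (red, left of each pair) and the 4 whole gcm arrays (blue), with the mean and SD of each group as bars and the near-background level of 5 as a dotted line. The arrays of the groups do not overlap for any of the 12 genes, with gcm, repo, gcm2, moody, wor, sna, elav, tsh and cbt higher in sorted gcm cells and tor, smg and RpL29 lower. The 12 genes were picked for the figure, and the groups do not overlap for 50.7% of all 13966 probe sets.

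A large part of the array differed between purified cells and whole embryos. In sorted gcm cells 6367 of 13966 probe sets passed the test (45.6%), with 3445 up (24.7%) and 2922 down (20.9%). Of these, 4048 changed at least 2-fold (29.0%), 2061 up and 1987 down, or 1558 up and 2374 down with the intensities as deposited. The median change over all probe sets was 0.06, a value that quantile normalisation holds near 0. Falls were the deeper: 853 probe sets fell 4-fold or more and 436 rose as much. Many changes ran to or from background, since 931 of the probe sets that fell had a sorted gcm mean below 5 and 855 of those that rose had a whole gcm mean below 5. Among the calls, 54.1% pointed up, and 45.6% did so with the intensities as deposited, where 9 of the calls changed sign. The arrays of the groups did not overlap for 7077 probe sets (50.7%). The list counts below stand against the shares of 24.7% up and 20.9% down.

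The 15 largest rises with no overlap between the groups included regulators of development and cell surface genes. Muc12Ea, a mucin gene, rose most, by 5.95 (SE 0.62, adjusted p = 9.99e-07) or 61.7-fold, with levels of 10.90, 10.15 and 11.37 in the sorted gcm arrays and 5.60, 5.33, 4.18 and 4.32 in the whole gcm arrays. Its sorted levels were far above background on every array, while whole gcm 3 and 4 lay below 5. The trunk patterning gene tsh, a zinc finger factor, had 11.72, 11.58 and 11.41 in the sorted gcm arrays and 8.08, 6.97, 6.67 and 6.75 in the whole gcm arrays, a rise of 4.45 (SE 0.30, adjusted p = 9.47e-09). The zinc finger gene cbt, which acts downstream of Jun kinase (JNK) signalling, rose by 4.44 (SE 0.31), with levels of 10.19 to 10.65 in sorted gcm cells and 5.11 to 6.59 in whole gcm embryos.

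Others in this group included the endocytic receptor component Amnionless (change 4.49), the calcium release channel RyR (3.94), the synaptic cadherin-like protein gene Cals (3.93), the large RNA-binding regulator spen (3.85), the planar polarity cadherin stan (3.71), the zinc finger gene sov (3.66), the adenosine deaminase gene Adgf-A (3.59), the muscle patterning gene tey (3.59) and the translation factor NAT1 (3.57). CG4133, CG3894 and CG11902 changed by 4.29, 4.06 and 3.77. For CG3894 and sov another probe set of the same gene read changes of -0.37 and 0.02 and was not called, so the size for these genes depends on the probe set. A further probe set of sov rose by 3.42 and was called. Across the array, 315 genes had at least 2 called probe sets, and for 45 of them the calls pointed in opposite directions.

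The 15 largest falls with no overlap included genes of the ribosome and the respiratory chain. RpL29, a protein of the large ribosomal subunit, was at 4.35, 4.42 and 4.20 in the sorted gcm arrays, against 12.28, 12.29, 12.55 and 12.44 in the whole gcm arrays. It was thus near background in every purified sample and close to the top of the scale in every whole embryo sample. It fell by 8.07 (SE 0.13, adjusted p = 6.52e-16), 268-fold on the scale with 16 added. Drsl5, a drosomycin-like antimicrobial peptide gene, had 4.21 to 4.71 in sorted gcm cells and 10.51 to 10.96 in whole gcm embryos, a change of -6.20. The splicing factor gene Phf5a changed by -5.62, the complex III subunit gene ox by -5.50, the ATP synthase genes ATPsynF and ATPsynE by -5.47 and -5.19, and the cytochrome oxidase gene COX8 by -5.23. RpL40 and RpS21 changed by -5.22 and -4.99 and the complex III gene UQCR-6.4 by -5.0. The others of the 15 were the glycolytic aldolase gene Ald1 (-5.08) and CG13427, CG5676, CG15098 and CG9344 (-5.57 to -5.01).

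**Figure D2:**
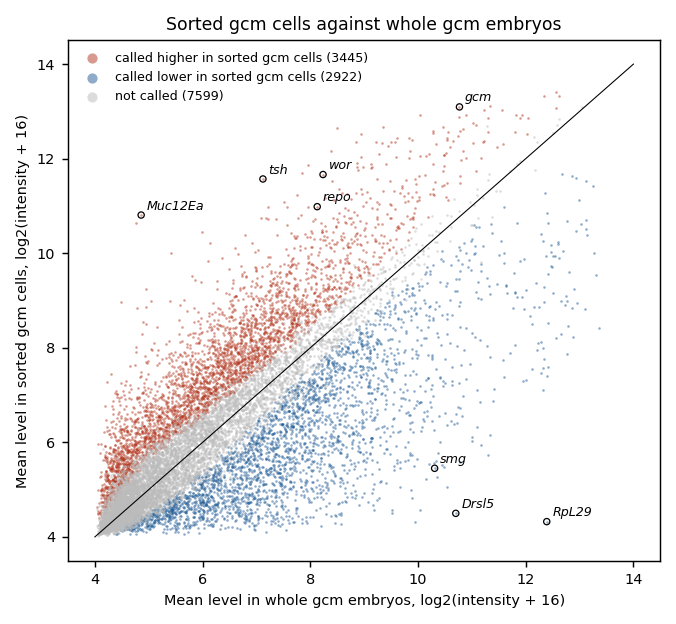
Mean level of each of 13966 probe sets in whole gcm embryos (horizontal axis, n = 4 arrays) and in sorted gcm cells (vertical axis, n = 3 arrays), both as log2 of intensity plus 16, with the line of equal levels. The 3445 probe sets called higher in sorted gcm cells (red) and the 2922 called lower (blue) lie on both sides of the line, and RpL29 is the point farthest below it.

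More of the measured glial genes rose than fell. Of 20 listed glial genes 16 were measured, and 9 rose, 3 fell and 4 were not called, with a list median of 1.17 against 0.06 over all probe sets, of which 24.7% rose and 20.9% fell. The list had a median genomic length of 7017 bp. Of all probe sets of genes of 5971 to 11010 bp, 35.5% rose. Among those with a mean level of at least 8 over the 7 arrays, which 1 group alone can bring about, 60.6% did. At that level 5 of 7 glial genes rose. Beside repo, the blood-brain barrier receptor moody had 10.03, 9.75 and 10.17 in the sorted gcm arrays and 7.41, 6.65, 6.33 and 6.26 in the whole gcm arrays. Every sorted array exceeded every whole array by more than 2 units, and the change was 3.32 (SE 0.23, adjusted p = 1.49e-08). The FGF receptor htl, used by migrating glia and by mesoderm, rose by 2.50 (SE 0.15), the sodium pump subunit nrv2 by 1.95 (SE 0.21) and the engulfment receptor drpr by 1.60 (SE 0.19).

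The glial genes that fell were Gs2, a glutamine synthetase (6.38 ± 0.25 in sorted gcm cells and 8.56 ± 0.26 in whole gcm embryos), aay, a phosphoserine phosphatase (6.32 ± 0.28 and 8.42 ± 0.23), and Gli, a tricellular junction protein (6.82 ± 0.63 and 8.61 ± 0.30; SD, n = 3 and 4 for each gene). Glial genes are also active outside the nervous system: Gli belongs to the septate junctions of all epithelia. The septate junction list was split, with 5 of 16 measured members higher, 6 lower and a median of -0.27. The adhesion proteins Nrg (change 3.51, SE 0.33) and Cont (2.88, SE 0.24) rose, as did the polarity gene l(2)gl (1.58, SE 0.23), and bou, a small membrane-anchored protein, fell by 1.83 (SE 0.23).

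Neuroblast and neuroectoderm genes changed in both directions, and the proneural genes among them were divided. Of 24 measured members 12 rose, 4 fell and 8 were not called (median 0.55). The balance depended on the scaling, with 7 higher and 6 lower as deposited (median 0.23), 8 and 6 with median centring (median 0.35), and 6 and 5 of 18 with genes under 2000 bp left out (median 0.16). The Snail family gene wor, which marks neuroblasts, had 11.86, 11.27 and 11.87 in sorted gcm 1, 2 and 4, against 8.82, 8.17, 7.92 and 8.04 in whole gcm 1 to 4. The groups were separated by more than 2 units, for a change of 3.43 (SE 0.23, adjusted p = 8.32e-09). Its relative sna rose by 3.32 (SE 0.17), the Sox gene D by 2.68 (SE 0.23), the homeobox gene pros by 2.24 (adjusted p = 0.00108) and the Hes gene dpn by 1.66 (SE 0.21).

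In the opposite direction, the proneural gene ac was at 4.16 to 4.63 in sorted gcm cells and 5.80 to 6.21 in whole gcm embryos, a change of -1.72 (SE 0.20), and its neighbour l(1)sc changed by -1.03 (adjusted p = 0.00492). Another proneural gene of that complex, sc, rose by 0.78 (adjusted p = 0.00618). Among early neuroectoderm markers, the Sox gene D rose (above) and the columnar gene Dr rose by 0.63 (adjusted p = 0.00502), while others did not pass the test: SoxN had 8.02 ± 0.24 in sorted gcm cells and 8.51 ± 0.51 in whole gcm embryos and ind 5.24 ± 0.98 and 5.64 ± 0.27 (SD, n = 3 and 4). The cells labelled neuroectodermal were thus divided in the markers of that tissue.

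Genes of the E(spl) complex rose. The Notch list had 11 of 15 measured members higher and 1, the Notch inhibitor numb, lower (median 1.44). The median was 0.89 with the intensities as deposited and 0.84 when all probe sets of each gene were averaged. With genes under 2000 bp left out, which removes the E(spl) genes, 4 of 8 were higher and 2 lower (median 0.10). All 7 measured genes of the E(spl) complex, which encode repressors and small adaptor proteins induced by Notch, rose, with a median of 2.19. E(spl)m3-HLH had 11.56, 12.07 and 11.82 in sorted gcm 1, 2 and 4, against 9.24, 8.99, 9.13 and 8.54 in whole gcm 1 to 4, a change of 2.85 (SE 0.22, adjusted p = 3.54e-08). The sorted arrays differed among themselves for this complex. E(spl)mbeta-HLH was at 12.22, 12.52 and 10.92 in sorted gcm 1, 2 and 4, against 9.13 to 9.72 in whole gcm embryos, and sorted gcm 4 was the lowest of the 3 for 6 of the 7 genes. The Notch co-activator mam rose by 1.47 and the glycosyltransferase fng by 1.39.

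Neuronal genes rose or were not called, with 10 of 21 measured members higher, 0 lower and a median of 0.64 in the limma fit (0.27 with genes under 2000 bp left out). These are long genes, with a median genomic length of 26844 bp. Of all probe sets of genes of 11013 to 26983 bp, 34.6% rose and 10.9% fell. In the longest decile, from 27025 bp, 36.7% rose and 6.0% fell. The pan-neuronal RNA-binding protein gene elav was at 11.00, 10.81 and 10.63 in sorted gcm 1, 2 and 4 and at 7.24 to 8.40 in whole gcm embryos, a change of 2.99 (SE 0.41, adjusted p = 1.63e-05). Its relative fne rose by 2.78 (SE 0.22), the early neuron factor nerfin-1 by 2.73 (SE 0.24), the motor neuron factor zfh1, which mesoderm and blood cells also express, by 3.41 (SE 0.38) and the adhesion protein gene Nrt by 1.79 (SE 0.18), for which a second probe set read -0.19 and was not called. Among genes of mature neurons, para, a sodium channel, was near background (4.30 ± 0.25 in sorted gcm cells and 4.31 ± 0.10 in whole gcm embryos). The synaptic vesicle protein gene nSyb was near background in sorted gcm cells (4.98 ± 0.26) and slightly above it in whole gcm embryos (5.26 ± 0.15). Of 7 midline genes 4 rose, among them the guidance cue NetB (1.61), and the repellent sli and the homeobox gene oc fell by 1.37 and 1.77.

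**Figure D3:**
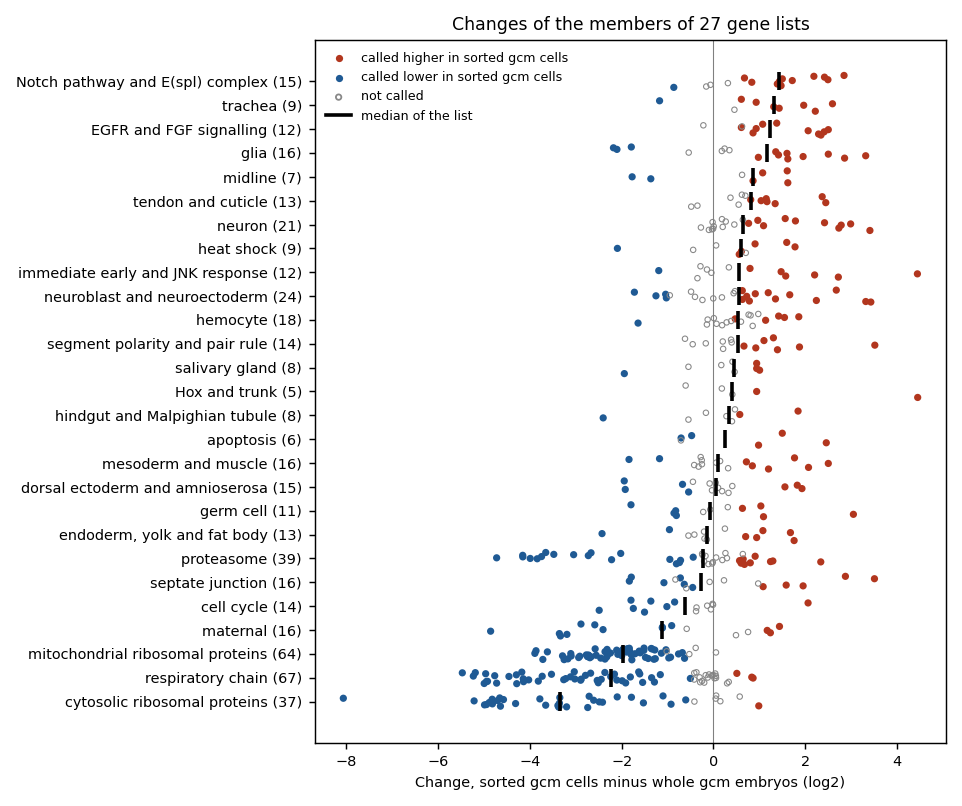
Change of each measured member of 27 gene lists, sorted gcm minus whole gcm on the log2 scale, with called members filled (red higher, blue lower), members not called open, the list median as a black bar and the number of measured members in brackets. Lists run from a median of 1.44 for the Notch pathway and E(spl) complex at the top to -3.35 for cytosolic ribosomal proteins at the bottom.

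Markers of tissues outside the neuroectoderm did not fall together. Of 15 dorsal ectoderm and amnioserosa genes 3 rose and 4 fell (median 0.05), near the shares of 24.7% and 20.9% over all probe sets. The dorsal GATA factor pnr was at 4.59 to 5.33 in sorted gcm cells and 6.54 to 7.15 in whole gcm embryos, a change of -1.92. The peptidase Ance changed by -1.95, while the zinc finger gene peb rose by 1.93. The summed intensity of these 15 genes was 1837 to 2249 in sorted gcm arrays and 1701 to 2553 in whole gcm arrays, ranges that overlap. Of 16 mesoderm and muscle genes 6 rose and 2 fell (median 0.10, sums 1851 to 2422 and 1027 to 1469), with twi, the mesoderm determinant, higher by 1.20 (SE 0.22) and Mp20, a muscle protein, changed by -1.84. Of 18 hemocyte genes 5 rose, a share near the 24.7% over all probe sets, and 1 fell (median 0.54, or 0.20 as deposited, sums 4609 to 4976 and 2174 to 3109). The hemocyte genes that rose were mostly those of basement membrane (LanB1, LanA, Ndg), the scavenger receptor crq fell by 1.64, and NimC1 was near background in both groups (4.12 ± 0.07 and 4.11 ± 0.02).

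Gut, yolk and fat body markers gave 5 rises and 2 falls among 13, and 3 and 1 as deposited (median -0.14, sums 880 to 1230 in sorted gcm arrays and 839 to 1574 in whole gcm arrays), with the lipoprotein gene apolpp at 6.23 to 6.49 in sorted gcm cells and 8.33 to 9.33 in whole gcm embryos (change -2.43, SE 0.39). The endoderm factor GATAe was near background in sorted gcm cells, with 4.53 ± 0.41 against 5.49 ± 0.47 in whole gcm embryos (adjusted p = 0.0381). The hindgut list gave 2 rises and 1 fall among 8, again near the shares of 24.7% and 20.9% over all probe sets, with drm, a gut patterning gene, changed by -2.40. Tracheal genes rose in 7 of 9 cases (median 1.31, or 0.66 as deposited, sums 8629 to 9796 and 3287 to 4540), with the nuclear receptor genes kni (2.59, SE 0.18) and knrl (1.97, SE 0.17) and the POU gene vvl (2.22, SE 0.29), all of which the nervous system or ectoderm also uses. Salivary gland genes gave 3 rises and 1 fall among 8, and 2 and 1 as deposited. The list medians for dorsal ectoderm, mesoderm and endoderm lie near 0 and change sign with the scaling: with the values as deposited the first is -0.25 and the second -0.11, and with median centring the last is 0.01. Whether cells of these tissues entered the purified samples was not tested.

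Germ cell transcripts moved both ways, and most maternal transcripts on the list fell. The germ cell list had 4 rises and 4 falls among 11 (median -0.07, and 0.13 with median centring), where 24.7% of all probe sets rose and 20.9% fell. The helicase vas, which marks germ cells, was at 4.22 ± 0.16 in sorted gcm cells and 5.03 ± 0.45 in whole gcm embryos (change -0.81, adjusted p = 0.0106), while tud, a germ plasm scaffold, rose by 3.05 (SE 0.34). Of 16 maternal genes 10 fell and 3 rose (median -1.11, sums 1204 to 1438 in sorted gcm arrays and 2500 to 4408 in whole gcm arrays). The translational repressor smg was at 5.58, 5.21 and 5.57 in sorted gcm 1, 2 and 4, against 10.02, 11.00, 9.88 and 10.33 in whole gcm 1 to 4, and fell by 4.86 (SE 0.53, adjusted p = 1.37e-06). Every purified sample was thus more than 4 units below every whole sample. The terminal receptor tor was at 4.20 to 4.25 in sorted gcm cells and 6.85 to 7.74 in whole gcm embryos, and bcd, the anterior determinant, and swa, which localises its transcript, changed by -2.89 and -3.36. A second probe set of swa read a change of 0.30 and was not called.

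Genes of segment patterning and of EGFR and FGF signalling rose in part. Of 14 segment polarity and pair rule genes 7 rose and 0 fell in the limma fit (median 0.53), against 6 and 1 as deposited (median 0.18) and 5 and 1 of 12 with genes under 2000 bp left out (median 0.12). The rises were led by the Wingless feedback inhibitor nkd at 3.52 (SE 0.38), for which a second probe set read 0.28 and was not called. The stripe genes en (7.04 ± 0.10 in sorted gcm cells and 7.66 ± 0.34 in whole gcm embryos) and hh (5.72 ± 0.01 and 5.89 ± 0.19) did not pass the test. In the EGFR and FGF list 10 of 12 rose (median 1.22): the receptor Egfr by 1.38 (SE 0.17), the FGF ligand ths by 2.34 (SE 0.29) and the feedback inhibitors sty and kek1 by 2.29 and 2.06. These are long genes, with a median genomic length of 18177 bp. Of all probe sets of genes of 11013 to 26983 bp, 34.6% rose. Among those with a mean level of at least 8 over the 7 arrays, which 1 group alone can bring about, 64.3% did. At that level 4 of 5 genes of the EGFR and FGF list rose. Tendon and cuticle genes rose in 7 of 13 cases, against 5 as deposited and 4 with genes under 2000 bp left out. Among them were the matrix protein Tsp (2.37) and the chitin deacetylase serp (2.45, with a second probe set at -0.09 and not called). Of 5 Hox and trunk genes tsh and Scr rose, and Antp, pb and Dfd did not pass the test.

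Genes that respond to injury and stress were higher in part. Of 12 genes in the immediate early and JNK list 6 rose and 1 fell (median 0.57). The phosphatase puc, a standard readout of JNK activity, was at 9.34, 9.11 and 9.34 in sorted gcm 1, 2 and 4, against 6.98, 6.40, 6.40 and 6.39 in whole gcm 1 to 4, and rose by 2.72 (SE 0.17, adjusted p = 2.96e-09). All sorted arrays lay more than 2 units above all whole arrays. With it rose the AP-1 genes Jra (1.47) and kay (1.57, with a second probe set at -0.18 and not called), the tumour necrosis factor ligand egr (2.20) and cbt, described above. The growth factor response gene Hr38 (4.35 ± 0.09 in sorted gcm cells and 4.50 ± 0.14 in whole gcm embryos) and Atf3 (5.08 ± 0.74 and 5.36 ± 0.42) did not pass the test.

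Heat shock genes gave 5 rises and 1 fall among 9 (median 0.61), but 2 and 2 as deposited (median 0.36) and 2 and 0 of 7 with genes under 2000 bp left out (median 0.25). The regulator Hsf rose by 1.78 and the small chaperone Hsp26 changed by -2.09. Hsp68, which is strongly heat-induced, was at 5.96 ± 1.05 in sorted gcm cells and 5.25 ± 0.35 in whole gcm embryos and was not called. Of 6 apoptosis genes the death inducers grim (2.46) and skl (0.98) and the apoptosome gene Dark (1.50) rose, and the inhibitor Diap2 and the caspase Dcp-1 changed by -0.71 and -0.48. Over all probe sets 24.7% rose and 20.9% fell. The call of Dcp-1 (adjusted p = 0.0432) was lost with median centring, with no intensity trend, with all 15 arrays, with the replicate block, and on leaving out sorted gcm 1, sorted gcm 4 or any 1 of the 4 whole gcm arrays. The part of dissociation in these changes was not tested.

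Some cell cycle genes fell in sorted gcm cells. Of 14 measured members 7 fell and 1, the transcription factor E2f1, rose (median -0.61). The mitotic cyclin CycB was at 9.73, 9.93 and 9.74 in sorted gcm 1, 2 and 4 and at 11.37 to 11.84 in whole gcm embryos, a change of -1.80 (SE 0.14, adjusted p = 5.14e-08). The replication clamp PCNA changed by -1.75 (SE 0.15), the mitotic kinase aurB by -2.49 (SE 0.29) and the anaphase activator fzy by -1.50 (SE 0.15). The replicative helicase genes Mcm2 (8.09 ± 0.18 in sorted gcm cells and 8.11 ± 0.10 in whole gcm embryos) and Mcm3 (8.21 ± 0.30 and 8.22 ± 0.17) were not called.

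Most genes of the cytosolic and mitochondrial ribosomes and of the respiratory chain fell. Of 37 cytosolic ribosomal protein genes 31 fell and 1, RpS28a, rose (median -3.35), and their summed intensity was 20934 to 38785 in sorted gcm arrays and 162763 to 172425 in whole gcm arrays. The purified samples differed most in this list, with sorted gcm 2 the highest of the 3 in 33 of the 37 genes and sorted gcm 4 the lowest in 31. Mitochondrial ribosomal protein genes fell in 60 of 64 cases and rose in 0 by limma (median -1.98). Of 67 respiratory chain genes 46 fell and 3 rose (median -2.24, or -0.40 over the 11 left when genes under 2000 bp are left out), with complex I at 23 falls in 31 genes, ATP synthase at 10 in 14, complex IV at 6 in 11, complex III at 3 in 4 and succinate dehydrogenase at 4 in 7. Of the 67, 10 had means below 5 in both groups, where no fall can be seen, so these fractions do not show which genes were spared.

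The proteasome divided by particle, though 7 of its 39 genes had means below 5 in both groups, where no fall can be seen. In the core particle, which cuts proteins, 13 of 21 genes fell and 1 rose (median -2.67). In the regulatory particle, which unfolds and feeds them in, 5 of 18 fell and 8 rose (median 0.09), where 20.9% of all probe sets fell and 24.7% rose. The core gene Prosbeta7 was at 6.78, 7.43 and 6.75 in sorted gcm 1, 2 and 4, against 10.32, 10.99, 11.04 and 10.97 in whole gcm 1 to 4, a change of -3.84 (SE 0.21, adjusted p = 1.27e-09). The regulatory gene Rpn6 was at 11.57 ± 0.32 in sorted gcm cells and 9.23 ± 0.08 in whole gcm embryos (SD, n = 3 and 4), a rise of 2.34 (SE 0.20, adjusted p = 9.10e-08). Median genomic length was 1201 bp for core genes and 1762 bp for regulatory genes. The median over all placed probe sets was 2745 bp, introns included.

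Change on purification moved with gene length. Genomic length could be given for 12398 probe sets (assembly release 6), and probe sets that rose had a median of 4872 bp and those that fell 1738 bp. The 100 largest rises had a median of 10186 bp and the 100 largest falls 958 bp. Of all placed probe sets, the shortest decile of genes had 11.1% higher and 30.3% lower (median change -0.13, 1240 probe sets). The longest decile had 36.7% higher and 6.0% lower (median 0.38, 1239 probe sets). The contrast was larger among probe sets with a mean level of at least 8. There the shortest decile had 6.3% higher and 84.8% lower (median -3.01, 79 probe sets). The longest decile had 79.7% higher and 5.1% lower (median 1.34, 79 probe sets). Over all placed probe sets Spearman's rho between change and length was 0.304, a description over probe sets that share arrays. Transcript length was not used here, and the part of length in the results of each list was not tested.

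The lists lay at different distances from their length class. A mean level of at least 8 over the 7 arrays was again required, which a probe set can reach through 1 group alone. The counts and offsets in this paragraph rest on that choice. Of 282 probe sets at that level in the 3 shortest deciles (up to 1665 bp), 237 were lower (84.0%) and 15 higher. Those 15 include all 7 measured E(spl) genes, with E(spl)m3-HLH at 1305 bp and E(spl)malpha-BFM at 676 bp, and also Him, a repressor of muscle differentiation, and NimC4, a receptor for dying cells. For list members at a level of at least 8, set against probe sets of the same length decile and at least that level, the median offset was 3.91 for 11 Notch genes, 0.38 for 10 neuroblast and neuroectoderm genes and 0.25 for 7 glial genes. It was -2.12 for 31 cytosolic ribosomal protein genes, -0.84 for 29 respiratory chain genes, -0.89 for 10 cell cycle genes and -0.33 for 24 proteasome genes. For 5 EGFR and FGF genes it was 0.01 and for 4 mitochondrial ribosomal protein genes 0.15. It was 1.15 for 8 septate junction genes, 1.22 for 6 neuronal genes, 0.86 for 4 tracheal genes and 0.34 for 5 heat shock genes. Within cytosolic ribosomal proteins rho with length was 0.078 over 37 genes, and within mitochondrial ribosomal proteins 0.617 over 64. Among the longest decile, Ptp61F, d4, for and Rbfox1 were lower at that level.

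**Figure D4:**
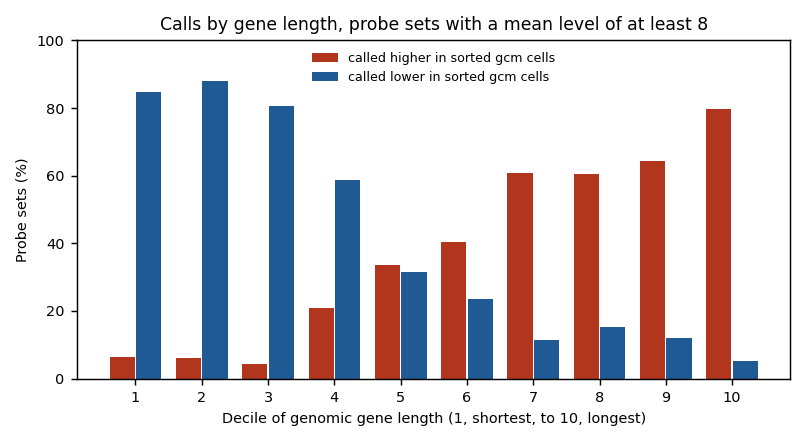
Percentage called higher (red) or lower (blue) in sorted gcm cells against whole gcm embryos, by decile of genomic gene length from shortest (1) to longest (10), for probe sets with a mean level of at least 8. A probe set can reach that mean through 1 group alone, and the shares drawn rest on this choice. The share called lower is 84.8% in the shortest decile and 5.1% in the longest, and the share called higher is 6.3% and 79.7%. Over all placed probe sets, which are not drawn, the share called lower is 30.3% and 6.0%, and the share called higher 11.1% and 36.7%.

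Control embryos changed on purification in nearly the same way. In sorted control cells against whole control embryos 6478 probe sets passed the test (46.4%), with 3483 up (24.9%) and 2995 down (21.4%). That split turned with the scaling, to 1776 up and 4304 down with the intensities as deposited, and was 4805 up and 3019 down with median centring. These 2 comparisons share no array, but both share the normalisation and the spread of the fit. The changes in gcm and in control correlated at 0.924 over 13966 probe sets (Spearman 0.880), and 5065 probe sets were called the same way in both, 79.6% of the gcm calls and 78.2% of the control calls. Another 8 were called in opposite directions. The change of RpL29 was -8.07 in gcm and -8.13 in control, that of tsh 4.45 and 4.47, that of wor 3.43 and 2.82 and that of puc 2.72 and 3.23. For gcm itself it was 2.33 and 3.24, and the difference of -0.92 (SE 0.31, adjusted p = 0.272) was not called.

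The test of the difference called 4 of 13966 probe sets (0.0286%), all higher in gcm, and 1468 had an unadjusted p under 0.05. Ect3, a beta-galactosidase gene, was at 12.21, 12.42 and 12.37 in the sorted gcm arrays and 9.08 to 9.68 in the whole gcm arrays, against 7.68 to 8.74 in sorted control and 7.93 to 8.63 in whole control arrays. It rose 8.01-fold on purification in gcm embryos and its control change was -0.02, so the difference was 3.02 (SE 0.32, adjusted p = 0.00111). MFS16, a transporter gene, was at 7.92 to 7.95 in sorted gcm cells and 8.07 to 8.36 in whole gcm embryos (change -0.28, SE 0.17, adjusted p = 0.209), against 5.67 to 6.34 in sorted control and 8.10 to 8.47 in whole control arrays (change -2.27). The difference for MFS16 was 1.99 (SE 0.24, adjusted p = 0.00332), with a fall in controls and no call in gcm.

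The other calls were Sardh, a sarcosine dehydrogenase gene (7.10 ± 0.53 in sorted gcm cells and 4.93 ± 0.09 in whole gcm embryos, SD, n = 3 and 4, difference 2.19, SE 0.34, adjusted p = 0.0348), and CG3841 (5.46 to 6.18 and 4.16 to 4.21, difference 1.50, SE 0.23, adjusted p = 0.0348). Sardh was near background in controls, and the difference of both it and CG3841 was no longer called with a pseudocount of 1, with median centring, with all 15 arrays or with the replicate block. With all 15 arrays Ect3 was not called either, and MFS16 alone was. The count was 64 without whole gcm 1, 14 without sorted control 4, 15 without whole control 2, 7 without sorted gcm 2 and 2 without each of 7 other arrays in turn, while Ect3 and MFS16 were called each time 1 array was left out. With all 14 arrays and the main settings no member of the 27 lists was called for the difference. With a pseudocount of 64 Ank2, a gene of the neuronal list, was called. On leaving out 1 array, moody, swa, tor and NimC4 were called without whole gcm 1, smg and tor without whole control 2 and vari without sorted control 4. The glial gene moody changed by 3.32 in gcm and 2.02 in control (difference 1.29, SE 0.33, adjusted p = 0.202), and the maternal gene smg by -4.86 and -2.13 (difference -2.73, SE 0.74, adjusted p = 0.222). The maternal list as a whole had 10 falls and 3 rises in gcm (median -1.11) and 6 falls and 4 rises in control (median -0.60). Among the whole embryo arrays smg was at 9.88 to 11.00 in gcm and at 6.66 to 9.49 in control.

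**Figure D5:**
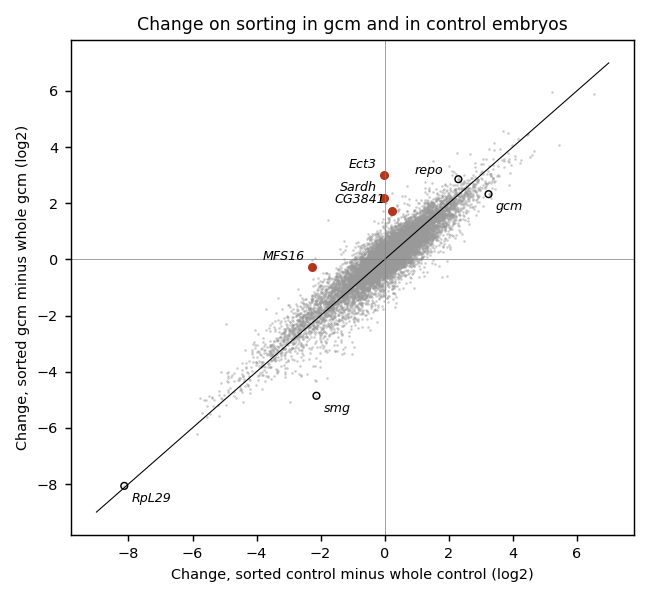
Change on purification of each of 13966 probe sets in control embryos (horizontal axis, sorted control minus whole control, log2) and in gcm embryos (vertical axis, sorted gcm minus whole gcm, log2), with the line of equal change. Most points follow the line (Pearson r = 0.924), and the 4 probe sets called for the difference (red) lie above it.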

How the data were processed

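Total RNA of stage 11 embryos was read on Affymetrix Drosophila arrays, per the labels. The deposited table holds linear intensities, 1 for each probe set on each array, up to 12846.6. Their summarisation and scaling by the authors are not given in the sources used here. No detection calls were used. All 14 arrays in the fit were quantile normalised together, 16 was added and log2 was taken. No probe set was filtered out beyond the Affymetrix controls.

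Groups were fitted as 1 mean each with limma 3.58.1 in R 4.3.3, with moderated variances that follow intensity. Two-sided p-values got a Benjamini-Hochberg adjustment over 13966 probe sets. The contrasts were sorted gcm minus whole gcm, the same in controls, and the difference of the contrasts. Sorted gcm 2 and 3, identical in all values, entered once. The pipeline was tested on simulated data.

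The platform annotation gave names: 12443 probe sets had 1 gene symbol, 327 had several and 1196 had none, and 12398 matched a gene of assembly release 6, which gave genomic lengths. A list uses the probe set with the highest mean level for each gene. The members and the 27 lists were chosen with earlier results of these data known. The rule for named genes took gcm, gcm2 and repo, the 15 largest rises and 15 largest falls among calls with 1 symbol and no overlap, up to 5 members per list by p with members not called that define a cell type, and up to 8 calls of the difference in each direction. Members of lists outside this rule, such as Gs2, Gli, drpr, pros, l(1)sc, mam, para, Hr38, Hsp68, Mcm2, vas and Rpn6, and the genes named for their length, were chosen after their values were seen.

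Residuals of arrays with the same replicate number correlated at 0.021, -0.058 and -0.055, or 0.116 with the array deposited under numbers 2 and 3 taken as 3, so numbers were not treated as pairs. The alternatives were a pseudocount of 1 or 64, values as deposited, median centring, the dimmest 40% left out, no intensity trend, only the 7 arrays compared, all 15 arrays, the replicate number as a block, each array left out in turn, probe sets averaged by gene for lists and, added after seeing the data, probe sets of genes under 2000 bp and unplaced ones left out. The number of arrays limits the precision.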

Additional observations from a re-analysis of the deposited data

Results flagged for a closer look

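Among named genes, 161 groups of 4 arrays were examined for an array whose gap to the nearest other exceeded Dixon's critical value for 4 arrays, and 14 had one. About 1 in 20 such groups is picked out by chance. Whole gcm 1 stood apart most often: gcm was at 11.25 there against 10.53 to 10.65 on the other whole gcm arrays, hkb at 7.53 against 6.52 to 6.66, puc at 6.98 against 6.39 to 6.40 and CG15098 at 8.77 against 10.21 to 10.34. The core proteasome genes were low on the same array, with Prosbeta7 at 10.32 against 10.97 to 11.04, Prosbeta2 at 10.06 against 10.62 to 10.67, Prosbeta6 at 9.95 against 10.96 to 11.05 and Prosbeta4 at 10.02 against 10.79 to 10.84. It was the lowest of the whole gcm arrays for 12 of the 13 core proteasome genes that fell in sorted gcm cells.

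Whole gcm 2 stood apart for sage (5.61 against 6.32 to 6.43) and pb (5.45 against 4.37 to 4.53). Whole gcm 3 did so for Amnionless (4.89 against 4.30 to 4.37), sli (5.32 against 6.29 to 6.35) and wbl (8.09 against 7.37 to 7.48), and sorted control 2 for Sardh (5.27 against 4.71 to 4.75).

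The change on purification differed between gcm and control embryos by 3.02 for Ect3, 2.19 for Sardh, 1.99 for MFS16 and 1.50 for CG3841, all by the test of the difference itself. The array labelled whole control 3, which entered no comparison, had gcm at 13.10, and the other whole controls lay at 8.07 to 8.66, when all 15 arrays were normalised together.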

How the results depend on the processing

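The 6367 calls became 5152 to 6751 under the alternatives that test all probe sets and 5529 to 6766 with 1 array left out in turn, and the 4048 calls of at least 2-fold became 3906 to 4307 with 1 array left out. With a pseudocount of 64, 2371 were of at least 2-fold. With genes spanning under 2000 bp and unplaced probe sets left out, which leaves 7696 probe sets, 3366 were called, 1962 of them at least 2-fold, and 3354 in control. With all 15 arrays 3647 were called in control. The 4 calls of the difference were 2 with a pseudocount of 1, median centring or the dimmest 40% left out, 7 with a pseudocount of 64 or with short genes left out, 1 with all 15 arrays, and 2 to 64 with 1 array left out, 64 without whole gcm 1. The control calls ran from 5635 to 6560 with 1 array left out. With the replicate number as a block, 6100 or 6223 were called by the number given to the array deposited under 2 numbers, and 2 for the difference in both. The cause was not tested where not named. With the values as deposited, 2681 calls were higher and 3201 lower. Medians of lists moved with the scaling and with short genes left out, as given beside the lists; with short genes left out that of apoptosis genes was -1.06 over 4 genes against 0.25 (-0.04 as deposited), and that of proteasome genes 0.62 over 5 against -0.24. For 157 named probe sets, 3811 of 3868 values kept their direction and side of the threshold, 51 lost the call, 4 gained it and 2 reversed: Dfd, which is not called, was at -0.04 as deposited and at -0.09 with short genes left out.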

Other observations

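The chromosome arms were alike in this comparison: 22.5% to 26.7% of placed probe sets on X, 2L, 2R, 3L and 3R were higher in sorted gcm cells than in whole gcm embryos and at most 22.0% were lower. On chromosome 4, with 72 probe sets, 26.4% were higher and 18.1% lower. The largest principal component of the 7 arrays held 82.8% of their variance.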
